A study of Mus musculus with 8 samples.

Results

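Keratin genes encode the intermediate filament proteins of epithelial cells, and 53 of the 36333 genes in the deposited table are keratins. They were chosen by name alone, as every gene symbol made of Krt, a number and at most 1 letter, so keratin-associated protein genes were left out and the rule itself uses no measured value. The keratins were taken in 3 groups, namely 4 basal keratins (Krt5, Krt14, Krt15 and Krt17), 3 luminal keratins (Krt8, Krt18 and Krt19) and 46 others. Bulk RNA-sequencing was done on the ventral lobes of prostates from 12-month-old FVB/N mice, 4 of them hSKP2-KI and 4 WT, with each mouse giving its own library. In hSKP2-KI mice, a P2A-human SKP2 coding sequence had been inserted by CRISPR/Cas9 into exon 1 of the endogenous, X-linked mouse probasin gene (Pbsn), which places it under the Pbsn promoter of the secretory epithelium. WT mice carried no insertion. The study describes several founder lines, and which of them gave the sequenced mice was not stated in the sources used here. The comparison asks how the keratin make-up of the ventral prostate differs between these genotypes. SKP2, the substrate-recognition subunit of an SCF ubiquitin ligase, is overexpressed in hSKP2-KI mice. The Pbsn transcript was also lower in them, and effects of the 2 changes cannot be told apart in this design.

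Keratin filaments are obligate heteropolymers, in which an acidic type I keratin pairs with a basic or neutral type II keratin. The pairs differ between epithelia: Krt8 with Krt18 in simple, secretory epithelium, Krt5 with Krt14 in the basal layer, Krt1 with Krt10 in cornifying epidermis and Krt4 with Krt13 in stratified epithelium that does not cornify. In the prostate, secretory luminal cells are classically recognised by Krt8 and Krt18 and the basal cells beneath them by Krt5 and Krt14, and Krt4 is a known transcript of the luminal cells near the urethra. In mouse the type I genes lie in a cluster on chromosome 11 and the type II genes in a cluster on chromosome 15, where the type I gene Krt18 also lies. By that split, 28 of the 53 genes were type I and 25 type II, with 27 on chromosome 11 and 26 on chromosome 15 (GRCm38.p6).

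Values are the authors' TPM, which divide the reads on a gene by transcript length, so levels of different genes can be set side by side. The test took the 13080 genes that reached 1 TPM in 4 or more mice, and TPM does not keep the read depth behind a value. Differences are hSKP2-KI minus WT on the log2(TPM + 1) scale with their standard error (SE), and adjusted p-values are from limma with Benjamini-Hochberg adjustment over all genes tested. The targeted locus was checked first: Pbsn, the host of the insertion, was at 115 ± 39.6 TPM in hSKP2-KI and 5984 ± 2447 in WT (SD, n = 4 each), and the Skp2 row, in which mouse and inserted human sequence cannot be told apart, at 48.1 ± 10.1 and 1.75 ± 0.53. Tissue identity was checked with Hoxb13, a transcription factor of prostate epithelium, with mean TPM of 620.0 in hSKP2-KI and 681 in WT. The 3 secretory transcripts Sbp, Spink1 and Sbpl took 32.1 to 34.3% of all TPM in hSKP2-KI and 40.4 to 45.8% in WT, and the median of all genes tested was 0.23 higher in hSKP2-KI. Keratin results are therefore given on the deposited scale and after 2 further scalings, by the median ratio over all genes (median of all genes -0.0071) and to 6 epithelial genes that are not keratins (0.14).

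Of the 53 keratins, 15 passed the filter: all 4 basal, all 3 luminal and 8 of the 46 others. The 38 that did not pass comprised 22 listed at 0 in all 8 samples, 14 under 1 TPM in every sample (the highest was Krt87 at 0.648 TPM) and 2, Krt20 and Krt31, that reached 1 TPM in single mice. Krt6a, Krt6b and Krt16, keratins of stressed or healing epidermis, were among those listed at 0. Krt13, the usual type I partner of Krt4, lay at 0.205, 0.336, 0.281 and 0.128 TPM in hSKP2-KI replicates 1 to 4 and at 0.0485, 0, 0 and 0.0496 in WT replicates 1 to 4. The genotypes did not overlap for Krt13, which was below the filter. With no filter on low values it was higher in hSKP2-KI (0.27, limma, adjusted p = 0.0176), as were 3255 of the 23826 genes in that fit. The fit was run on the deposited scale only, and the depth behind such low values is unknown. As plotted for the 15 keratins that passed, the 3 luminal keratins were the most abundant in both genotypes, and Krt4 stood the seventh by mean TPM in WT and the fifth in hSKP2-KI.

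**Figure D1:**
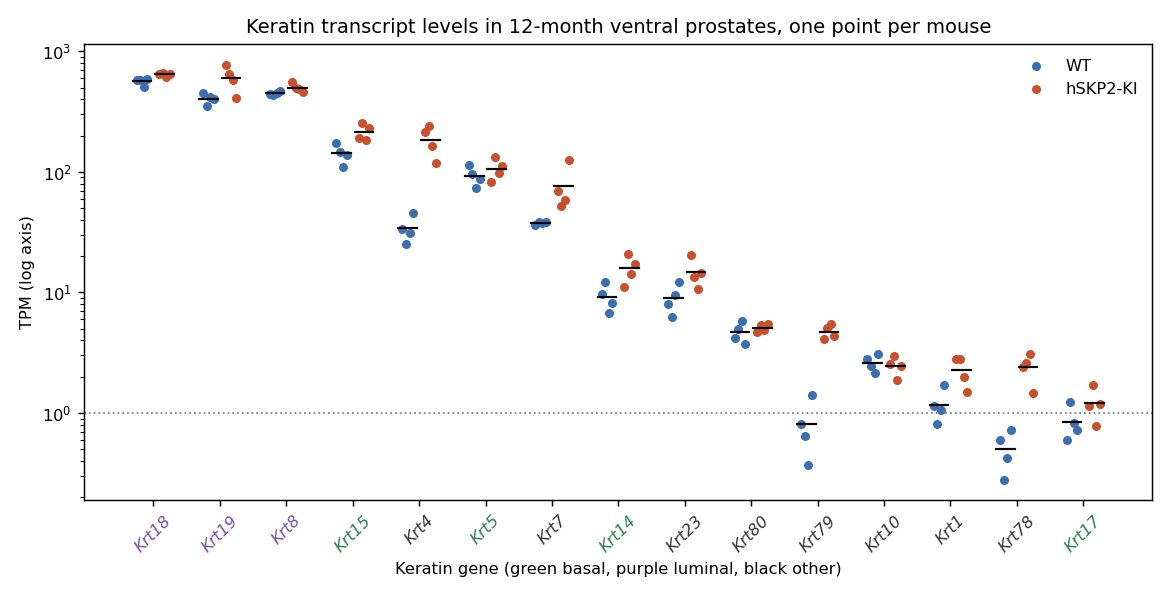
TPM (log axis) of the 15 keratins that passed the filter, with 1 point per mouse (4 WT, 4 hSKP2-KI) and a bar at each genotype's mean; the dotted line marks 1 TPM. The 4 hSKP2-KI points lie above all 4 WT points for Krt4, Krt79, Krt78, Krt7, Krt15 and Krt18.

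On the deposited scale, 9 of the 15 keratins tested were higher in hSKP2-KI and 0 lower, beside 32.7% of all genes tested higher and 1.23% lower. At an unadjusted p under 0.05, 10 were higher and 0 lower. After median-ratio scaling 3 remained, Krt4, Krt79 and Krt78, beside 6.91% of all genes higher and 4.25% lower, and after scaling to the epithelial genes 4, the same 3 and Krt7, beside 13.5% and 1.36%. The median difference of the 15 keratins was 0.58 against 0.23 for all genes on the deposited scale, and 0.33 against -0.0071 after median-ratio scaling. The genotypes did not overlap for 6 of the 15, beside 34% of all genes tested, with hSKP2-KI higher each time (1.03% of all genes lay apart in the other direction), and for 4 of 15 after median-ratio scaling (Krt4, Krt79, Krt78 and Krt7), beside 10.3%. Quantile normalization called 3 higher and 0 lower, beside 5.42% and 4.65% of all genes, and rescaling without the 20 most abundant genes 3 and 0, beside 6.75% and 3.32%. Each of these counts of higher keratins includes Krt78, which passed the filter only through hSKP2-KI, the genotype in which it was higher. Values of the 9 and of the 6 that were not called are given by group, from the keratins that moved most to those that define the prostate's cell layers. Because the tissue was bulk, a change in the number of cells of a type and a change in RNA per cell cannot be told apart in any of them.

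**Figure D2:**
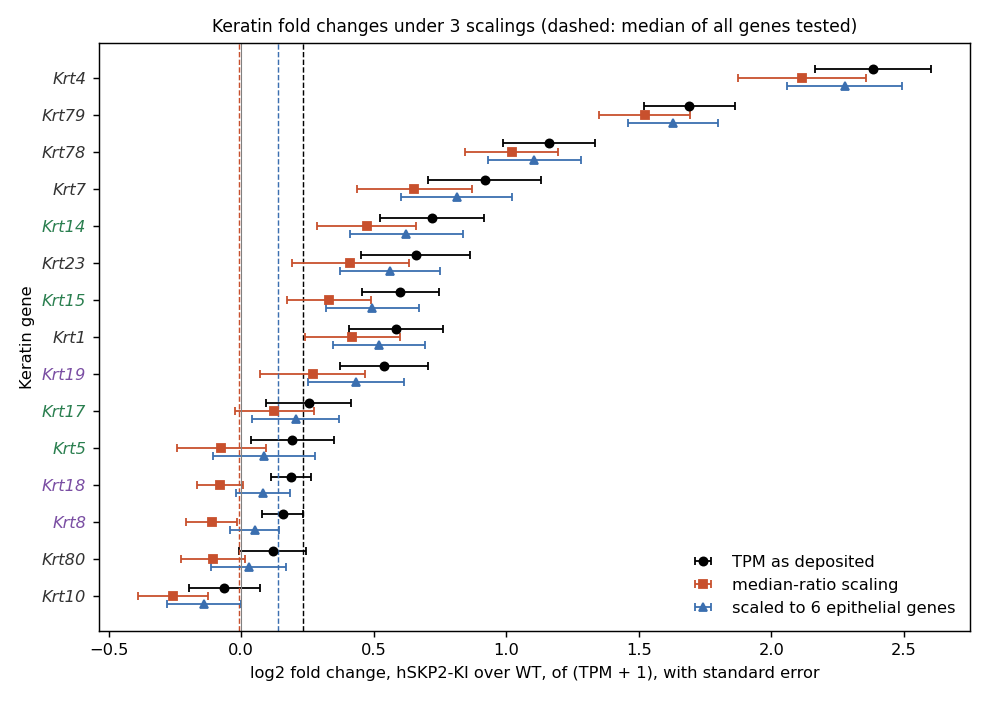
Difference between hSKP2-KI and WT on the log2(TPM + 1) scale, with its standard error, for the 15 keratins under 3 scalings, and the median of all genes tested under each as a dashed line of the same colour. Krt4, Krt79 and Krt78 lie at 2.38, 1.69 and 1.16 on the deposited scale and stay above 1 under each scaling, while Krt5, Krt8 and Krt18 lie on either side of 0 depending on the scaling.

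Krt4 (Entrez 16682), a type II keratin of stratified non-cornifying epithelium such as oesophagus and tongue, showed the largest difference of the 15. Its level was 215, 239.6, 163 and 118 TPM in hSKP2-KI replicates 1 to 4 and 33.8, 25.2, 31.2 and 45.5 TPM in WT replicates 1 to 4. The genotypes did not overlap, and the lowest hSKP2-KI mouse was replicate 4. Mean TPM was 5.42-fold higher and the difference 2.38 ± 0.22 (SE, adjusted p = 0.000162), or 2.12 after median-ratio scaling (adjusted p = 0.00161). Krt4 made up 7.63 ± 1.68% of all keratin TPM in hSKP2-KI and 1.93 ± 0.44% in WT (SD, n = 4). For each TPM of Krt8 there was 0.365 ± 0.096 TPM of Krt4 in hSKP2-KI and 0.075 ± 0.017 in WT, a within-mouse ratio that does not depend on how samples are scaled.

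The next 2 type II genes along chromosome 15 moved with it. Krt79 (Entrez 223917), a keratin known from hair follicle and sebaceous duct epithelium, was at 4.08, 5.06, 5.44 and 4.36 TPM in hSKP2-KI and at 0.805, 0.651, 0.369 and 1.40 TPM in WT. Krt78 (Entrez 332131), a keratin of stratified epithelium, was at 2.43, 2.62, 3.09 and 1.47 TPM in hSKP2-KI and at 0.598, 0.281, 0.421 and 0.721 TPM in WT. Neither gene overlapped between genotypes. The differences were 1.69 ± 0.17 for Krt79 (SE, adjusted p = 0.000311) and 1.16 ± 0.17 for Krt78 (adjusted p = 0.00187), and 1.52 and 1.02 once scaled by the median ratio. At such levels the added 1 TPM compresses the difference, and the ratio of mean TPM was 5.88 for Krt79 and 4.76 for Krt78, close to that of Krt4. Krt78 reached 1 TPM in all 4 hSKP2-KI mice and in 0 WT mice, so it entered the test only through the genotype in which it was higher, and Krt79 reached it in 4 and 1. The TPM of Krt4 per TPM of Krt79 was 39.2 ± 12.6 in hSKP2-KI and 49.4 ± 23.7 in WT, and per TPM of Krt78 it was 78.1 ± 17.6 and 70.8 ± 14.5 (SD, n = 4), with overlapping genotypes for both.

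The 3 genes are consecutive. Krt4 spans chr15:101918535-101924735, Krt79 chr15:101929332-101940324 and Krt78 chr15:101946001-101996624, with 4596 and 5676 bases between them (RefSeq, GRCm38.p6). On one side, Krt76, 25614 bases before Krt4, did not exceed 0.0787 TPM in any mouse. On the other, Krt8 (chr15:101996711-102004342) begins 86 bases after the end of the long Krt78 record, and Krt18 (chr15:102028216-102032026) follows 23873 bases later. These differed by 0.16 and 0.19 on the deposited scale, and by -0.11 and -0.080 after median-ratio scaling, and neither was called under any of the 3 scalings. Of the non-keratin genes beyond Krt18, chosen for their position, Eif4b differed by 0.24 (adjusted p = 0.0329), Tns2 by 0.29 (0.0433), Spryd3 by 0.063 (0.459) and Igfbp6 by 1.17 (0.000641, limma). Of the 9 keratins tested on chromosome 15, 5 were called higher on the deposited scale, and of the 6 on chromosome 11, 4, beside 32.7% of all genes. The plot by gene order shows the same genes after median-ratio scaling.

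**Figure D3:**
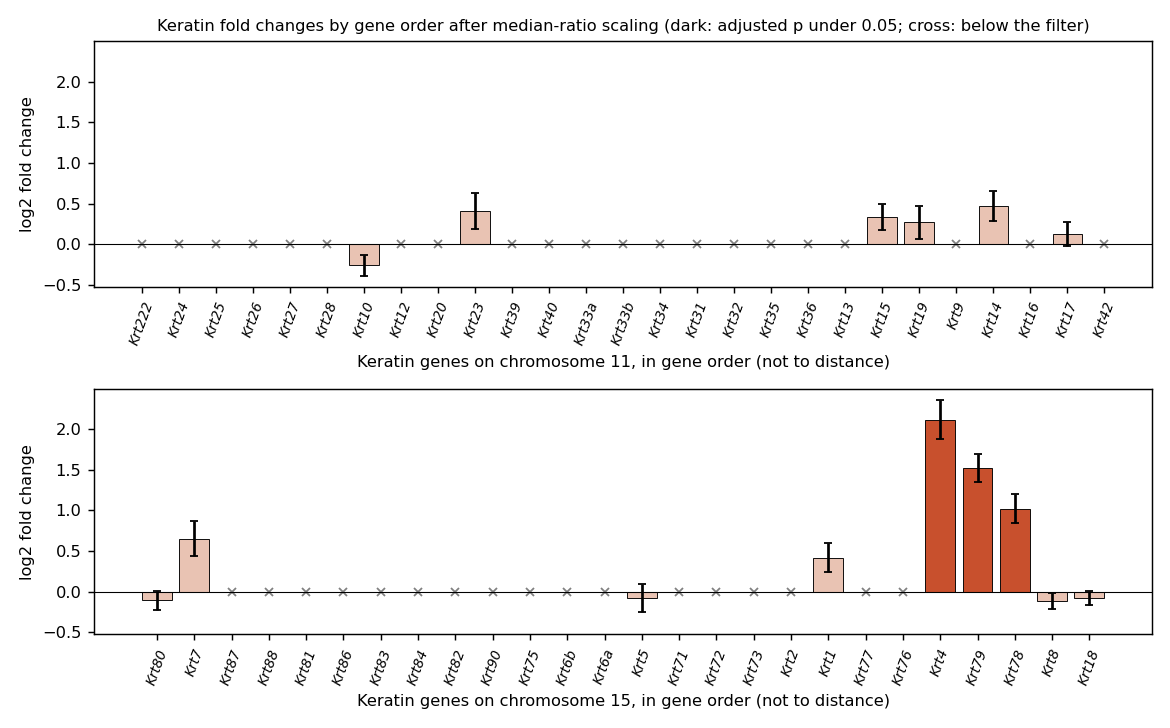
Difference between hSKP2-KI and WT on the log2(TPM + 1) scale after median-ratio scaling, with its standard error, for the keratins of chromosome 11 (top) and chromosome 15 (bottom) in gene order. Dark bars mark an adjusted p under 0.05 and crosses the 38 genes below the filter; the dark bars are the neighbours Krt4, Krt79 and Krt78, and the bars of Krt8 and Krt18 beside them lie just under 0.

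Upstream sequences were available for 9 of the 15 tested keratins, 2 of the 3 neighbours among them. The 250 bases before the start of Krt79 and of Krt78 are shown with those of Krt8, the next gene along, because the first pair was higher in hSKP2-KI under each scaling and Krt8 was not. All 3 read from the minus strand of GRCm38.p6 (RefSeq), at chr15:101940325-101940574, chr15:101954288-101954537 and chr15:102004343-102004592. Capitals mark ATAAA, the core of a TATA box, where it lay 40 to 20 bases before the start on the gene's strand, and AGAACA, a core element of the sites of androgen and glucocorticoid receptors, on either strand.

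Krt79: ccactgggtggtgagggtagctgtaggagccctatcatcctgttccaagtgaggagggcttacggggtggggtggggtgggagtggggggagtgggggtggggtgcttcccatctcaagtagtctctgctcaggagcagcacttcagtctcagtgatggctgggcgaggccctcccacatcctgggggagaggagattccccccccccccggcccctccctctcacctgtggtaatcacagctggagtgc
Krt78: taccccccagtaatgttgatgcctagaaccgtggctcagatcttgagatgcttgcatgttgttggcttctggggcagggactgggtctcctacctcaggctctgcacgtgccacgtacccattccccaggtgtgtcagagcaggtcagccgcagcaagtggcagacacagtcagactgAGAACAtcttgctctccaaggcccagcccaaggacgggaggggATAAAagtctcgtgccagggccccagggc
Krt8: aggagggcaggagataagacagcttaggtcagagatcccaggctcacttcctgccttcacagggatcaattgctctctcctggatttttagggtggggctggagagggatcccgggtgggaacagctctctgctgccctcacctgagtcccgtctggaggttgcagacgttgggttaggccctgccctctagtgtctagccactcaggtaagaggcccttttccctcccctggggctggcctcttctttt

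The Krt78 sequence holds both sets of letters, ATAAA at 29 and AGAACA at 72 bases before the start, and the other 2 hold neither. Its start lies inside the RefSeq record of Krt78, which runs on to the border of Krt8. Over the 9 keratins, ATAAA stood in that window in 4 (Krt5, Krt10, Krt23 and Krt78), and in 4.25% of 32851 promoters of all genes, and on the other strand in 0 and 2.25%. AGAACA was present in 1 of the 9 and in 16.1% of all. The keratins with ATAAA in the window include Krt5 and Krt10, which were not called, and the ones without include Krt79. The letters were chosen after the sequences had been seen, and a match describes the sequence without showing that a factor binds there.

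Krt7 (Entrez 110310; chr15:101412403-101427806), a type II keratin of ductal epithelium and urothelium, was at 69.6, 52.4, 58.1 and 125 TPM in hSKP2-KI and at 36.1, 38.3, 37.6 and 38.1 TPM in WT. The WT mice lay close together, the genotypes did not overlap and hSKP2-KI replicate 4 stood well above the rest. The difference was 0.92 ± 0.21 (SE, adjusted p = 0.0106), and 0.65 without hSKP2-KI replicate 4 (adjusted p = 0.00446). It was 0.81 after scaling to the epithelial genes (adjusted p = 0.0251) and 0.65 after median-ratio scaling (adjusted p = 0.0813), where it was not called. Within each mouse, the ratio of Krt7 to Krt8 was 0.106 to 0.272 in hSKP2-KI and 0.0816 to 0.0882 in WT, without overlap. For this and the ratios below, how often ratios of other genes lie apart was not computed. Some of the ratios were chosen after their values were seen.

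The high Krt7 of hSKP2-KI replicate 4 came with Krt20, a type I keratin of urothelial umbrella cells and gut epithelium. Krt20 was at 0.0458, 0.55, 0.209 and 2.78 TPM in hSKP2-KI and at 0.433, 0, 0.221 and 0.221 TPM in WT, and in the mean of the genotypes it could not be separated (2-sided exact permutation test, p = 0.4, where the smallest p of 4 against 4 is 0.0286). The same mouse held 12.5 TPM of the uroplakin Upk3a against at most 0.312 in any other mouse, 6.4 TPM of the water channel Aqp3 against at most 0.185, and 38.7 TPM of the cornified envelope gene Sprr1a against at most 1.2. It also held 1.74 TPM of Ivl (involucrin) against at most 0.0466, and these 4 genes were picked after their values were seen. Upk2 also peaked in this mouse, at 13.6 TPM against at most 4.79 in any other. Upk1a, Upk1b and Upk3b did not. Upk1a, at 651 TPM, was lowest there among hSKP2-KI mice, Upk1b was at 43.2 TPM against 43.8 in replicate 1, and Upk3b at 1.86 TPM against 2.58 in replicate 2. Of the urothelial list (Upk1a, Upk1b, Upk2, Upk3a and Upk3b) all 3 members tested were higher on the deposited scale (median 1.44), beside 32.7% of all genes. After median-ratio scaling 2 were, beside 6.91%. The summed list was 722 to 1017 TPM in hSKP2-KI, lowest in replicate 4, and 398 to 663 in WT. Of that sum, Upk1a alone gave 822 ± 155 and 560.5 ± 117 TPM. The part of urothelial or other non-prostate tissue in the Krt7 and Krt20 values was not tested. In hSKP2-KI replicates 1 to 3, Upk1a, Upk1b and Upk2 also lay above every WT mouse. Upk3a and Upk3b did not do so in all 3.

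**Figure D4:**
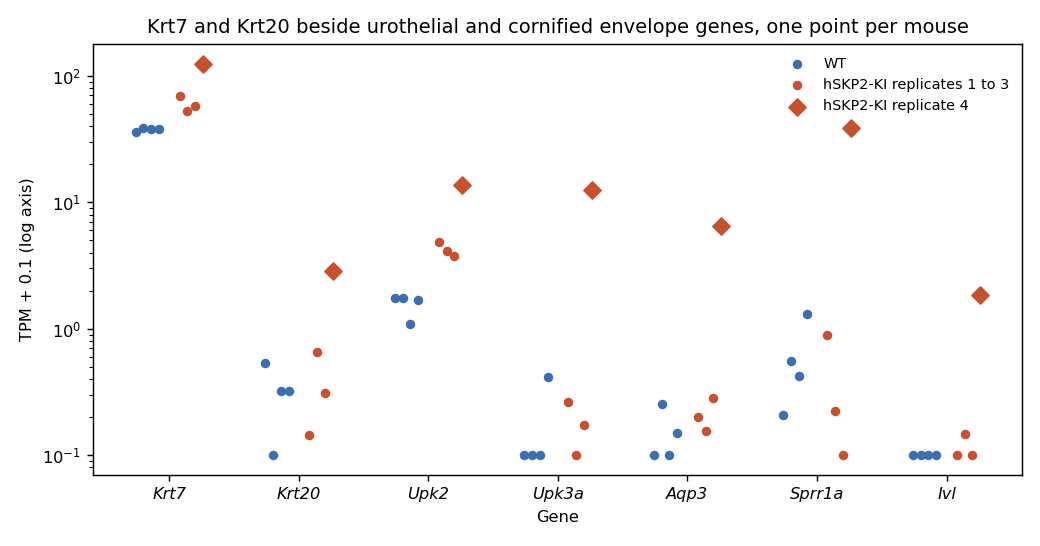
TPM + 0.1 (log axis) of Krt7 and Krt20 beside urothelial genes, Aqp3 and the cornified envelope genes Sprr1a and Ivl, 1 point per mouse, with hSKP2-KI replicate 4 as diamonds. The diamond is the highest point for all 7 genes, at 125 TPM for Krt7 and 2.78 TPM for Krt20, and for Krt7 the other 3 hSKP2-KI mice still lie above WT.

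Among the basal keratins, the ratio of mean TPM in hSKP2-KI to WT was 1.73 for Krt14, 1.51 for Krt15, 1.43 for Krt17 and 1.15 for Krt5. Whether they differed from each other in this was not tested. Krt14, the type I member of the basal pair, was at 11.2, 20.9, 14.4 and 17.1 TPM in hSKP2-KI and at 9.62, 12.3, 6.75 and 8.22 TPM in WT, and Krt5, its type II partner, at 83.1, 133, 97.5 and 112 TPM and at 114, 96.7, 73.2 and 87.4 TPM. Both overlapped between genotypes, Krt5 over most of its range and Krt14 only through hSKP2-KI replicate 1. Krt14 differed by 0.72 ± 0.20 (SE, adjusted p = 0.0193) and Krt5 by 0.19 ± 0.16 (adjusted p = 0.329). The Krt14 call was lost without WT replicate 3 (0.60, adjusted p = 0.0518) and after either further scaling (0.62, adjusted p = 0.071, and 0.47, adjusted p = 0.131). Within each mouse there were 7.42, 6.39, 6.79 and 6.51 TPM of Krt5 per TPM of Krt14 in hSKP2-KI and 11.8, 7.88, 10.9 and 10.6 in WT. The genotypes did not overlap, though hSKP2-KI replicate 1 (7.42) was near WT replicate 2 (7.88).

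Krt15 (Entrez 16665; chr11:100131759-100135949), a type I keratin of basal and progenitor cells with no fixed type II partner, was at 191, 256, 184 and 230.5 TPM in hSKP2-KI and at 174, 147, 109 and 139 TPM in WT. On this scale the genotypes did not overlap, which they did after median-ratio scaling, and the difference was 0.60 ± 0.14 (SE, adjusted p = 0.0122), but it was 0.49 (adjusted p = 0.0815) after scaling to the epithelial genes and 0.33 (adjusted p = 0.208) after median-ratio scaling. The ratio of Krt15 to Krt5 was 1.89 to 2.30 in hSKP2-KI and 1.49 to 1.59 in WT, without overlap, whereas that of Krt15 to Krt14 overlapped. Krt17, a type I keratin of basal cells and injured epithelium, stayed near the filter at 0.787 to 1.69 TPM in hSKP2-KI and 0.598 to 1.23 TPM in WT and was not called (0.25 ± 0.16, adjusted p = 0.221). It reached 1 TPM in 3 hSKP2-KI mice and 1 WT mouse. In all, 2 of the 4 basal keratins were called higher on the deposited scale, beside 32.7% of all genes. After either further scaling 0 were, beside 13.5% (epithelial genes) and 6.91% (median ratio). Their medians were 0.43, 0.35 and 0.23, in that order.

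Of 10 other genes of basal epithelium, 9 passed the filter and 3 were higher on the deposited scale, 0 lower, with a median of 0.33, a share near the 32.7% of all genes. The 3 called were Snai2, a transcription factor (0.48, adjusted p = 0.0223), and Itga6 and Itgb4, the subunits of the hemidesmosomal integrin (0.35, adjusted p = 0.0486, and 0.33, adjusted p = 0.0474). Trp63, the p63 gene that defines basal cells, differed by 0.38 (adjusted p = 0.0915). Scaled by the median ratio, 0 of the 9 were called, beside 6.91% of all genes higher and 4.25% lower, and their median was 0.091. The summed list was 147 to 200 TPM in hSKP2-KI and 128 to 179 in WT, overlapping as the basal keratin sum did.

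The luminal keratins Krt8 and Krt18 had the smallest standard errors of the 15. Krt8 was at 559, 494, 489.6 and 459 TPM in hSKP2-KI and at 441, 434, 449 and 466 TPM in WT, and Krt18 at 654, 663, 615 and 642 TPM and at 583, 582, 507 and 588 TPM. Krt8 overlapped between genotypes through hSKP2-KI replicate 4, and Krt18 did not overlap on the deposited scale but did after median-ratio scaling. The differences of 0.16 ± 0.078 for Krt8 (SE, adjusted p = 0.129) and 0.19 ± 0.076 for Krt18 (adjusted p = 0.0729) did not pass, and both lay below the median of all genes, 0.23. The ratio of Krt8 to Krt18 was 0.778 ± 0.062 in hSKP2-KI and 0.795 ± 0.063 in WT (SD, n = 4), with overlap.

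Krt19 (Entrez 16669; chr11:100140810-100145926), a type I keratin that lacks the usual tail domain and is found in ductal and progenitor epithelium, varied more than either. It was at 773, 642, 574 and 410.1 TPM in hSKP2-KI and at 453, 351, 414 and 398 TPM in WT, with replicate 4 of hSKP2-KI inside the WT range. The difference was 0.54 ± 0.17 (SE, adjusted p = 0.0302). The call was lost when any of 6 of the 8 mice was left out (hSKP2-KI replicates 1 to 3 and WT replicates 2 to 4), with adjusted p-values of 0.0528 to 0.0699, and after either further scaling (0.43, adjusted p = 0.133, and 0.27, adjusted p = 0.423). The ratio of Krt19 to Krt18 overlapped between genotypes. Krt15 and Krt19 are neighbours on chromosome 11, 4860 bases apart.

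Among the remaining keratins, Krt23, a type I keratin, was at 20.5, 13.4, 10.7 and 14.5 TPM in hSKP2-KI and at 8.06, 6.21, 9.44 and 12.3 TPM in WT. The genotypes overlapped through WT replicate 4, and the difference of 0.66 ± 0.21 (SE, adjusted p = 0.0325) was not called after median-ratio scaling (0.41, adjusted p = 0.262) or without any 1 of hSKP2-KI replicates 1, 2 and 4 and WT replicates 1 to 3 (adjusted p = 0.0520 to 0.0792). Krt1, a type II keratin of cornifying epidermis, was at 2.81, 2.83, 2.00 and 1.49 TPM in hSKP2-KI and at 1.14, 0.818, 1.05 and 1.69 TPM in WT. The difference was 0.58 ± 0.18 (adjusted p = 0.0286), or 0.42 after median-ratio scaling (adjusted p = 0.161), and the call was lost without any 1 of hSKP2-KI replicates 1 and 2 and WT replicates 1 to 3 (adjusted p = 0.0591 to 0.0728). Its type I partner Krt10 was at 1.90 to 2.94 TPM in hSKP2-KI and 2.14 to 3.06 in WT (-0.064 ± 0.14, adjusted p = 0.713), and the ratio of Krt1 to Krt10 was 0.605 to 1.10 in hSKP2-KI and 0.334 to 0.552 in WT, without overlap. Krt80, a type II keratin of differentiating epithelium, was at 4.74 to 5.44 TPM and 3.74 to 5.77 TPM (0.12 ± 0.13, adjusted p = 0.458). Krt31, a type I hair keratin below the filter, reached 1.17 TPM in hSKP2-KI replicate 2 and was between 0.169 and 0.611 in the other 7 mice (2-sided exact permutation test, p = 0.429).

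The total of all 53 keratins was 2596, 2539, 2226 and 2149 TPM in hSKP2-KI and 1865, 1705, 1649 and 1796 TPM in WT, without overlap on this scale. Luminal keratins contributed 1744 ± 200 TPM in hSKP2-KI and 1417 ± 56.7 in WT (SD, n = 4), basal keratins 339 ± 58.8 and 245 ± 45.1, and the others 295 ± 36.8 and 91.7 ± 11.6. The luminal sum, like that of the others, did not overlap between genotypes, though the lowest hSKP2-KI mouse (1511 TPM) was near the highest WT mouse (1478 TPM). After median-ratio scaling, chosen for these sums after their values were seen, the total was 2168 ± 238 and 1933 ± 226 and the luminal sum 1591 ± 215 and 1561 ± 166, both with overlap, and only the sum of the others stayed apart, at 269 ± 36.1 and 101 ± 14.2. As a share of keratin TPM, the luminal keratins took 70.3 to 76.5% in hSKP2-KI and 79.2 to 83.1% in WT, the others 11.3 to 12.9% and 4.72 to 6.01%, and the basal keratins 14.3 ± 2.68% and 13.9 ± 2.01% (SD, n = 4). Only the basal share overlapped. The log2 ratio of basal to luminal keratins was 0.18 higher in hSKP2-KI, within the spread between mice, and the ratio of type II to type I keratins was 0.592 ± 0.024 in hSKP2-KI and 0.548 ± 0.025 in WT, also with overlap. No test was run on sums or ratios of members, and how often ratios of other genes lie apart was not computed.

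**Figure D5:**
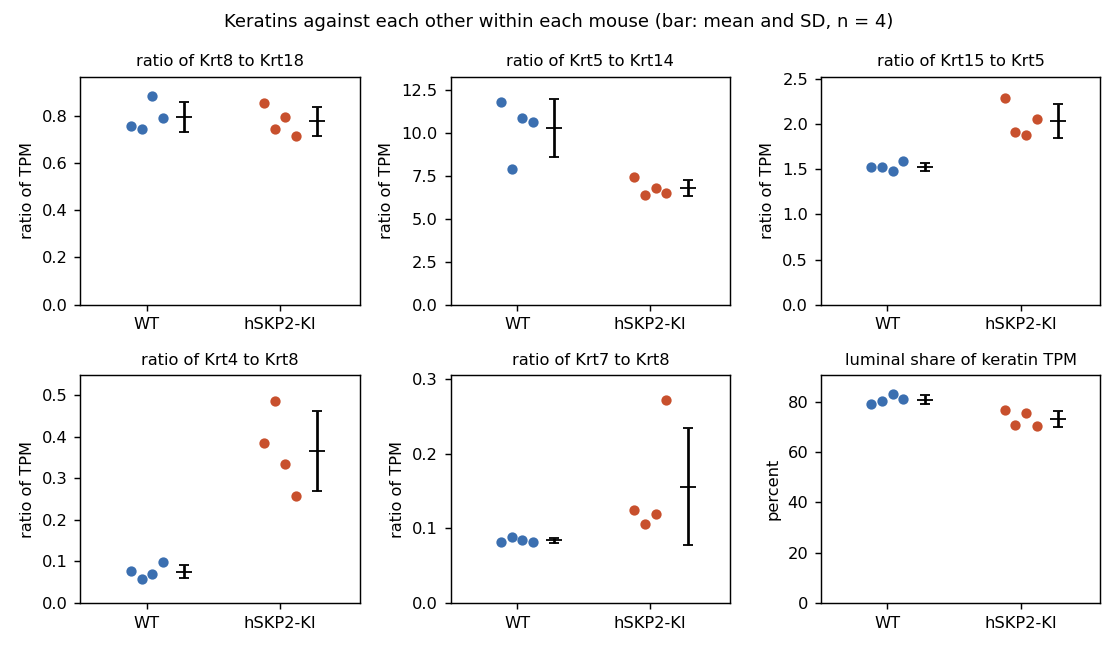
Within-mouse ratios of keratin TPM and the luminal share of keratin TPM, 1 point per mouse, with the mean and SD of each genotype (n = 4). Some of the ratios were chosen after their values were seen. Krt8 to Krt18 overlaps between genotypes at means of 0.778 and 0.795, while Krt5 to Krt14 and the luminal share are lower, and Krt15 to Krt5, Krt4 to Krt8 and Krt7 to Krt8 higher, in every hSKP2-KI mouse than in every WT mouse.

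Genes that anchor or bundle keratin filaments were mostly not called. Of 12 such genes (desmosomal plaque proteins, plakins and filament organisers), all passed the filter and 2 were higher on the deposited scale, beside 32.7% of all genes, with a median of 0.18 against 0.23: Pkp1, a desmosomal plakophilin (0.50, adjusted p = 0.0133), and Dst, the plakin gene of hemidesmosomes (0.42, adjusted p = 0.04). After median-ratio scaling 0 were higher and 2 lower, beside 6.91% and 4.25% of all genes, namely Jup (-0.23, adjusted p = 0.0309) and Evpl (-0.35, adjusted p = 0.0252), with a median of -0.053. Of 16 intermediate filament genes that are not keratins, 9 passed and 7 were higher, beside 32.7% of all genes (median 0.56), among them the mesenchymal Vim (0.92, adjusted p = 0.00925) and the muscle genes Des (0.87, adjusted p = 0.00542) and Synm (0.87, adjusted p = 0.00187), and after median-ratio scaling Synm alone, beside 6.91%.

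The keratin values were read beside lists of other cell types. Proximal luminal genes that are not keratins were higher for 9 of 10 on the deposited scale (median 1.38), beside 32.7% of all genes, and for 6 after median-ratio scaling (median 1.14), beside 6.91%. Their sum was 452 to 968 TPM in hSKP2-KI and 271 to 328 in WT. They included Wfdc2 (2.01, adjusted p = 0.00215), Ly6d (1.99, adjusted p = 0.00293) and Psca (1.86, adjusted p = 0.00856), and Cldn10 was not called (0.070, adjusted p = 0.766). Psca was highest in hSKP2-KI replicate 4, at 209 TPM, the mouse in which Krt4 was lowest of the hSKP2-KI mice. Of 12 secretory luminal genes, 2 were higher and 3 lower (median -0.16), beside 32.7% and 1.23% of all genes, and after median-ratio scaling 0 and 4, beside 6.91% and 4.25%. The 3 lower genes on the deposited scale were Pbsn, the locus of the insertion itself, Mme (-2.08, limma, adjusted p = 9.56e-05) and Spink1 (-0.76, adjusted p = 0.0219). After median-ratio scaling Mme was at -2.35 (adjusted p = 7.59e-05), and Spink1 was not called (-1.03, adjusted p = 0.0788). Of the 6 pan-epithelial genes used for scaling, 2 were higher (Epcam and Cdh1) and 1 lower (Ap1m2) on the deposited scale, with a median of 0.18, so that reference was itself not flat.

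Lists of cells that a dissected lobe could also hold are set beside 32.7% of all genes called higher on the deposited scale and 6.91% after median-ratio scaling. On the deposited scale, called higher were 6 of 6 fibroblast genes (summed 759 to 1333 TPM in hSKP2-KI, 420 to 605 in WT), 6 of 6 smooth muscle genes (2702 to 4119, 1832 to 2316), 4 of 5 endothelial genes (32.0 to 56.7, at most 28.5 in WT) and, near the share of all genes, 2 of 6 leukocyte genes (42.5 to 115, 16.8 to 46.1). After median-ratio scaling these counts were 2, 3, 1 and 0. Both mesothelial genes tested of 5 were higher (4.28 to 12.9 TPM, 1.39 to 3.01), and 1 of the 2 after median-ratio scaling; mesothelium is known to express keratins too. For cornified envelope genes 0 of the 5 tested of 13 were called (21.2 to 74.4, 20.4 to 28.7), with Flg, Sprr1b, Sprr3 and Cnfn listed at 0 and the highest sum in hSKP2-KI replicate 4. For hair follicle genes 1 of the 3 tested of 6, Lef1, was called (4.33 to 5.74, 3.16 to 3.98), with Dsg4 and Hoxc13 listed at 0. The 1 neuroendocrine gene tested of 5 was higher (2.44 to 6.14, 1.49 to 2.22), and 0 of 7 seminal vesicle genes passed the filter (0 to 0.656, 0.0727 to 0.666), with Svs2, Svs3a and Pate4 listed at 0. The part of these cell types in the keratin results was not tested.

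Reads could be shared with near-identical copies for 4 of the 15 keratins. Of the 100-base words in Krt8 transcripts (GENCODE vM21), 17.1% also occurred in Krt8-ps or Gm36026, and the share was 3.81% for Krt5 (Krt6a, Gm44323 and Gm5478), 2.78% for Krt14 (Krt16) and 1.5% for Krt80 (the overlapping gene Gm35853). For the other 11, Krt4, Krt79, Krt78, Krt7, Krt15 and Krt19 among them, it was 0. How the authors' software assigned such reads was not given in the sources used here, so Krt8, Krt5, Krt14 and Krt80 carry that uncertainty.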

How the data were processed

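The authors made poly-A RNA-sequencing libraries from the ventral prostate of 12-month-old mice (4 hSKP2-KI, 4 WT), 1 library each, and reads were mapped and counted in CLC software, whose version and counting options, strand included, are not given in the sources used here. The submitters' processing notes name mm10 and GRCm38. The authors deposited TPM per gene, and each sample sums to 1000000. Depth behind a value is unknown, so no counting intervals were computed, and 0 columns belong to other samples. A listed 0 was taken as a listed value only.

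Samples were grouped by their labels. The 13080 genes with at least 1 TPM in at least 4 of 8 samples were fitted as log2(TPM + 1) with limma 3.58.1 (trend) in R 4.3.3 without covariates, with Benjamini-Hochberg adjustment and a threshold of 0.05, after the procedure had been tested on simulated data. A fold change on this scale understates that of low genes. Genes below the filter that reached 1 TPM were compared by a 2-sided exact permutation test over 70 assignments. Alternatives were scaling by the median ratio, by quantiles or after removing the 20 most abundant genes, a pseudocount of 0.1, no filter or one on a mean TPM of 5, scaling to 6 epithelial genes, a replicate block, and leaving out each mouse. Keratins and lists were chosen with earlier results of these data known, and so were the ratios, some of them after their values were seen. Every keratin passing the filter or reaching 1 TPM was named, with at most 6 genes from each other list, those of largest change or at 0. Genes outside this rule are said to be, with 5 exceptions: Hoxb13, Sbp, Jup, Evpl and Cldn10. Hoxb13 and Sbp were named as checks, Jup and Evpl for their calls after median-ratio scaling, and Cldn10 as not called. Some listed genes are not reported here. Replicate numbers are not said to pair mice. Deviations of same-numbered mice correlated at 0.22, -0.11, 0.17 and -0.014. These were computed over genes, whose values are not independent, so they cannot exclude pairing. The labels and the study's methods give no sequencing batch. Plotting used Python 3.11.15 and matplotlib 3.10.9.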

Additional observations from a re-analysis of the deposited data

Results flagged for a closer look

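In 52 groups of 4 mice, 1 keratin in 1 genotype each, the highest or lowest mouse was screened for a gap to its nearest neighbour large against the group's range (Dixon's test), which chance alone gives in about 1 group in 20. Among keratins that passed the filter or reached 1 TPM, it was met by 2 groups. They were Krt18 in WT replicate 3, at 507 TPM below 582 to 588 TPM in the other WT mice, and Krt31 in WT replicate 2, at 0.403 TPM above 0.214 to 0.218 TPM in the other WT mice. Keratins under 1 TPM in every sample are not all listed, and Krt87 is 1 example. It was at 0.648 TPM in WT replicate 2, above 0.324 to 0.331 TPM in the other WT mice. The Krt18 value lies under all others of either genotype.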

How the results depend on the processing

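The count of keratins higher in hSKP2-KI was 9 on the deposited scale, 3 after median-ratio scaling, 3 after quantile normalization, 3 after rescaling without the 20 most abundant genes and 4 after scaling to epithelial genes, with 0 lower in each; the cause was not tested. It was 5 to 8 with 1 mouse left out, 5 of them without WT replicate 3, and 6 with no filter, where Krt14, Krt19, Krt23 and Krt1 lost their call and Krt13 had one. Krt4, Krt79 and Krt78 kept their call and direction in all their alternatives, with ranges of 2.12 to 2.58, 1.36 to 2.53 and 0.87 to 2.06. Most alternatives used the same filter on 1 TPM, which Krt78 passed only through hSKP2-KI. Krt79 and Krt78 were too low for the fit on a mean TPM of 5. Among keratins not called, the sign turned for Krt10 without hSKP2-KI replicate 3 (0.019, in a range of -0.13 to 0.019 with 1 mouse left out) and for Krt17 under quantile normalization (-0.038). Under median-ratio scaling, quantile normalization and rescaling without the 20 most abundant genes it turned for Krt80 (-0.11, -0.20, -0.088), Krt5 (-0.075, -0.020, -0.054), Krt8 (-0.11, -0.090, -0.091) and Krt18 (-0.080, -0.042, -0.059). With the replicate number as a block, which pairs mice by number only, the count was 9: Krt1 lost its call (limma, adjusted p = 0.0519) and Krt18 gained one (adjusted p = 0.0433). The basal to luminal difference was 0.075 to 0.32 with 1 mouse left out and 0.081 with Krt5 and Krt14 against Krt8 and Krt18, and that of type II to type I 0.081 to 0.13. In an alternative chosen after seeing the data, median-ratio scaling moved the difference of summed TPM from 624 to 235 for all keratins, from 93.7 to 37.2 for basal, 327 to 29.8 for luminal, 203 to 168 for other, 361 to 113 for type I and 262 to 122 for type II keratins. Over all genes, 4272 were higher and 161 lower on the deposited scale, 904 and 556 after median-ratio scaling, 709 and 608 after quantile normalization, 881 and 433 without the 20 most abundant genes, and 1761 and 178 after scaling to epithelial genes. Unknown depth limits the values near or below 1 TPM most, those of Krt78, Krt79, Krt17, Krt1 and Krt13.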
